A study of Homo sapiens with 18 samples.

Results

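The long arm of chromosome 5 held 47790 of the 1413022 TOP2 peaks that the authors called with MACS in 12 libraries of KG-1 cells, and 49349 of 1483019 sites of the second caller, SISSRs. Members were every peak or site whose midpoint lies between 49.5 and 180.915 Mb of hg19 chromosome 5, taken library by library. The short arm up to 46 Mb, with 21010 MACS peaks, served as the reference. The arm was chosen by its peak density in these same lists, so the densities below are a description and carry no test. Tests were kept for drug, antibody, peak width, score and caller agreement, which the choice did not use.

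KG-1 is an established human acute myeloid leukaemia line. In the etoposide experiment, chromatin was precipitated with a TOP2A or a TOP2B antibody after 1 h with 100 µM etoposide or with its methanol vehicle, in 2 libraries per antibody and treatment. The mitoxantrone experiment has 1 library per antibody after 1 h with 0.5 µM mitoxantrone and 1 from untreated cells. Each library pools several precipitations of crosslinked chromatin, the labels do not tie the 2 replicates to different cultures, and the libraries of both antibodies for one treatment may share chromatin. The 6 input samples were not analysed here, and all groups are the same cell line.

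Type II topoisomerases cut both strands of one DNA duplex and pass another through the gap, which relieves torsional stress during transcription and replication. TOP2A is the form of dividing cells and TOP2B is present in dividing and resting cells alike. Etoposide and mitoxantrone trap the enzyme on cut DNA and are linked to therapy-related leukaemia. Loss of part of the long arm of chromosome 5 is a recurrent change in myeloid neoplasms. Its commonly deleted bands hold EGR1, a zinc-finger transcription factor, CTNNA1, the adhesion protein alpha-catenin, and RPS14, a ribosomal protein of the small subunit. No hg19 annotation was at hand, so these genes are background and no peak was assigned to a gene.

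Peak lists differed widely in length, which sets the precision of every value below. The MACS lists held 36528 and 195016 peaks (TOP2A etoposide), 217253 and 249290 (TOP2A vehicle), 70459 and 103633 (TOP2B etoposide) and 116111 and 297394 (TOP2B vehicle). In the mitoxantrone experiment they held 7607 (TOP2A mitoxantrone), 109739 (TOP2A untreated), 702 (TOP2B mitoxantrone) and 9290 (TOP2B untreated). Sequencing depth is unknown. Density is therefore given relative to each library's own mean: peaks per 500 kb bin divided by the mean over the 5738 bins of chromosomes 1 to 22 and X with a peak in the etoposide experiment, so that 1 is the library's average.

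From 90 to 160 Mb, the window named when the arm was chosen, all 12 MACS lists were below their own mean. The relative density of this window was 0.533 and 0.498 in the TOP2A etoposide libraries, against 0.518 and 0.505 with vehicle. It was 0.532 and 0.508 in the TOP2B etoposide libraries, against 0.498 and 0.501 with vehicle. These 8 values average 0.512 ± 0.0146 (SD, n = 8) and rest on between 467 and 3601 peaks per library. The whole long arm stood at 0.759 ± 0.0134 and the short arm at 0.920 ± 0.0124 (SD, n = 8 each).

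The low window was thus 0.556 ± 0.0158 of the short arm (SD, n = 8), from 0.535 to 0.575 across libraries, a log2 ratio of -0.85 ± 0.041. No library of the etoposide experiment overlapped between window and short arm: the highest window value was 0.533 and the lowest short-arm value 0.902. The stretches of the long arm to either side averaged slightly over 1. The piece before 90 Mb averaged 1.02 ± 0.0399 and the piece after 160 Mb 1.08 ± 0.0501 (SD, n = 8 each). With SISSRs sites the ratio of window to short arm was 0.537 ± 0.0213 (SD, n = 8).

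**Figure D1:**
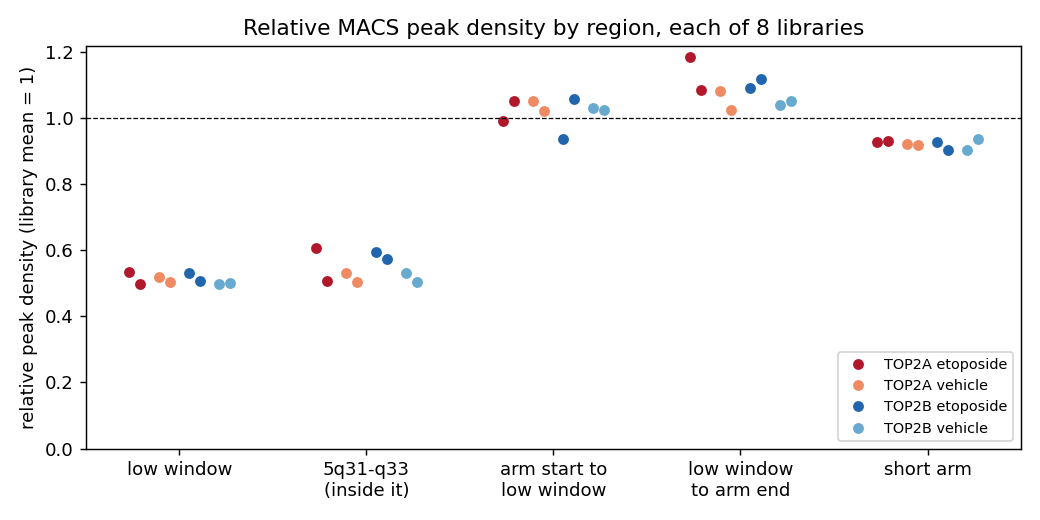
Relative MACS peak density (library mean = 1) of the low window, 5q31-q33 inside it, the long arm before and after the window, and the short arm; each point is 1 of the 8 libraries of the etoposide experiment. Window values lie between 0.498 and 0.533, short-arm values between 0.902 and 0.937.

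The window understated the low segment on both sides. The bins next to its bounds showed no step: the bin from 90 to 90.5 Mb, just inside, stood at 0.453 ± 0.0930 and the bin from 89.5 to 90 Mb, just outside, at 0.475 ± 0.178. At the other bound, the bin from 159.5 to 160 Mb, just inside, stood at 0.505 ± 0.156 and the bin from 160 to 160.5 Mb, just outside, at 0.460 ± 0.152 (SD, n = 8 for each bin). A fit of 3 levels to the log2 density of the 263 bins of the arm, by least squares, placed the left edge at 86 Mb in 7 of 8 libraries and at 86.5 Mb in TOP2B vehicle 2. It placed the right edge at 167 Mb in 7 of 8 libraries and at 167.5 Mb in TOP2B vehicle 1. The TOP2A untreated library of the other experiment gave 86 and 167 Mb as well, so that the segment spans 81 Mb.

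Both edges were steps within 1 bin. Relative density was 0.550 ± 0.131 from 86 to 86.5 Mb, just inside, against 1.25 ± 0.199 from 85.5 to 86 Mb. At the other end it was 0.387 ± 0.199 from 166.5 to 167 Mb, just inside, against 1.12 ± 0.380 from 167 to 167.5 Mb (SD, n = 8 each). The TOP2A untreated library showed the same steps more steeply, with 0.210 inside against 1.84 outside on the left and 0.105 inside against 1.47 outside on the right.

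**Figure D2:**
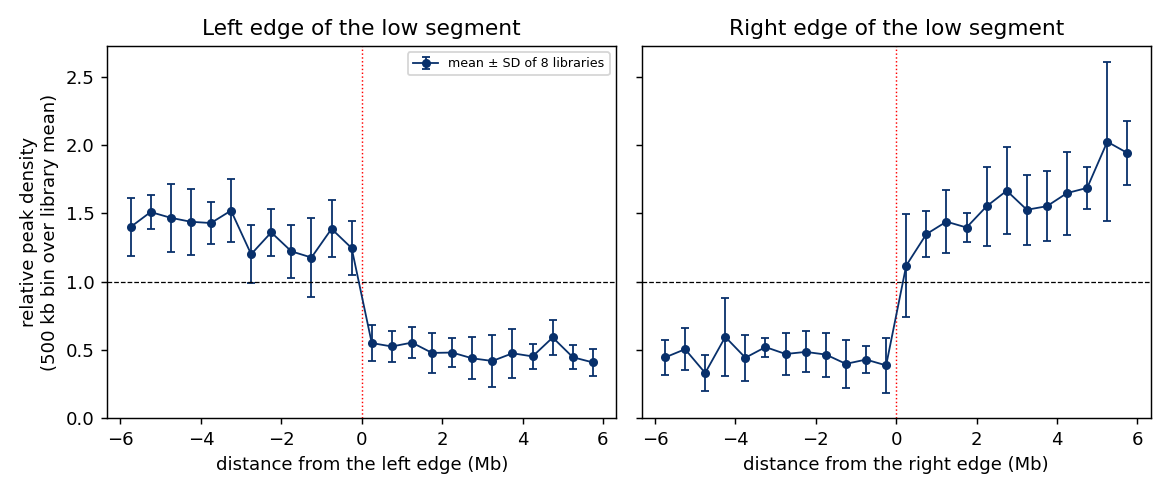
Relative MACS peak density in 500 kb bins within 6 Mb of the left and right fitted edges (dotted), as mean ± SD of 8 libraries; the dashed line is the library mean. Density steps between neighbouring bins at both edges, with 0.550 inside against 1.25 outside on the left and 0.387 inside against 1.12 outside on the right.

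Peak positions located the steps more finely than the bins. Within 2 Mb of each edge, the break that best separates a higher from a lower peak rate was found for each library, a measure added after the bin fit had been seen. The left break averaged 85.94 ± 0.11 Mb, from 85.79 to 86.14 Mb, and the right break 167.18 ± 0.064 Mb, from 167.06 to 167.26 Mb (SD, n = 8 each). Peaks were 0.410 ± 0.0686 times as frequent inside the left break as outside it, and 0.302 ± 0.0755 times inside the right break (SD, n = 8 each). Each break was placed by the best separation of these same peaks, so the ratios lean towards a strong step. Of the 4 mitoxantrone-experiment lists, 3 held at least 10 peaks near an edge. Their breaks were 85.64 and 167.20 Mb for TOP2A mitoxantrone, which has 12 and 13 peaks there, against 85.85 and 167.15 Mb for TOP2A untreated. TOP2B untreated gave 85.76 and 167.37 Mb from 13 and 10 peaks.

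With 6 levels, also added after seeing the data, the arm read as a chain of plateaus. The first 4 Mb after the centromere, from 49.5 to 53.5 Mb, were low at 0.515 ± 0.0419. From 53.5 to 74 Mb the density was 1.04 ± 0.0690, and from 74 to 86 Mb it was 1.33 ± 0.0345. The segment from 86 to 167 Mb stood at 0.506 ± 0.0085, between 0.494 and 0.519 in all 8 libraries. Beyond it came the densest stretch of the arm, 1.57 ± 0.125 from 167 to 175.5 Mb, and then 1.13 ± 0.0951 to the last peak of the arm (SD, n = 8 for each level).

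**Figure D3:**
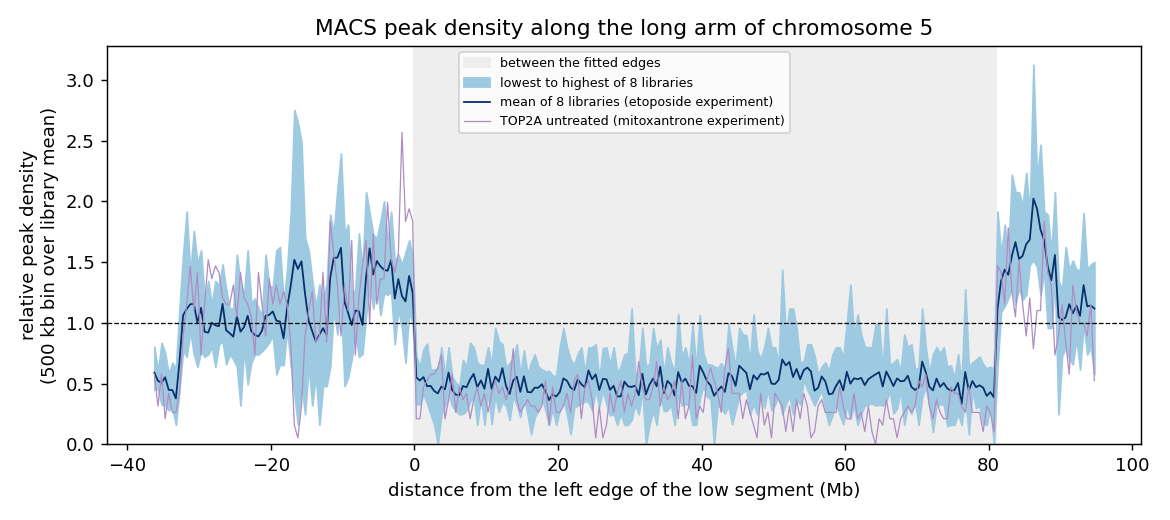
Relative MACS peak density per 500 kb bin along the long arm, against the distance in Mb from the left edge of the low segment; the dark line is the mean and the band the range of 8 libraries, the thin line the TOP2A untreated library, and the shaded area lies between the fitted edges. The mean line stays between 0.331 and 0.698 inside the segment and averages 1.33 and 1.57 in the levels that flank it.

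At a cut of 0.7, no other stretch of the genome stayed low for as many bins without a break. A mean density under 0.7 was found in 817 of the 5738 bins, and 162 of these (19.8%) formed the unbroken run from 86 to 167 Mb. The genome held 11 such runs of at least 20 bins. The next in length lay on chromosome X from 2 to 52.5 Mb (101 bins, 0.503) and from 65.5 to 109 Mb (87 bins, 0.486), and on chromosome 4 from 144.5 to 186 Mb (83 bins, 0.505), levels close to the 0.506 of the chromosome 5 segment. Chromosome X was also low from 109.5 to 134.5 Mb (50 bins) and from 135 to 153.5 Mb (37 bins). Only short gaps, from 109 to 109.5 Mb and from 134.5 to 135 Mb, part these runs from the one that starts at 65.5 Mb. The ranking by length depends on the cut of 0.7. The highest bin of the chromosome 5 run averaged 0.698, so a slightly lower cut would split that run. Of 1139 windows of 140 bins off the segment, 49 had a lower mean than the 90 to 160 Mb window, all on 1 chromosome. Averaged over the whole chromosome, X stood at 0.507 ± 0.0071 and chromosome 8 at 2.00 ± 0.0362 (SD, n = 8 each). Peak lists hold no measure of DNA copy number, so fewer copies of a stretch of DNA and less enzyme per copy cannot be told apart in them. The inputs that carry the read level without antibody were not analysed here.

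Inside the window the mean density of the 8 libraries of the etoposide experiment was nearly even. In pieces of 10 Mb the mean ran from 0.467 ± 0.0326 (100 to 110 Mb) to 0.573 ± 0.0874 (130 to 140 Mb; SD, n = 8 each). Single bins averaged at least 0.364 ± 0.144, from 104.5 to 105 Mb, followed by 0.393 ± 0.134 from 105.5 to 106 Mb and 0.393 ± 0.145 from 114 to 114.5 Mb. The highest were 0.698 ± 0.376 from 137 to 137.5 Mb, 0.681 ± 0.252 from 156.5 to 157 Mb and 0.678 ± 0.281 from 138 to 138.5 Mb (SD, n = 8 each). The TOP2A untreated library was less even: its pieces of 10 Mb from 90 to 130 Mb lay between 0.349 and 0.433, and those from 130 to 160 Mb between 0.262 and 0.275. The SD of the highest bin is larger than the gap between its mean and that of the lowest bin.

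Of the 140 bins of the window, 95.7% to 100% lay under the library mean in the 8 libraries. The variance of the bin counts divided by their mean, which is 1 for peaks scattered at random, was between 0.887 and 1.17 in the window and between 0.959 and 2.00 on the short arm. TOP2A untreated had 1.32 in the window and 2.14 on the short arm. Short-arm bins held more peaks on average, and those near the centromere were low, at 0.439 from 45 to 45.5 Mb in the mean of the 8 libraries. The part of either in this contrast was not tested. Replicates of a group barely agreed on which of the 140 bins were higher: Pearson's r across these bins was 0.140 (TOP2A etoposide), 0.120 (TOP2A vehicle), -0.0681 (TOP2B etoposide) and 0.0714 (TOP2B vehicle). Over all 263 bins of the arm the same pairs gave 0.697, 0.830, 0.666 and 0.849. Bins are not independent replicates. The whole arm spans the steps at the edges and its other levels, and their part in the larger values was not tested.

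Outside the window the lowest bins of the arm were 162 to 162.5 Mb at 0.331 ± 0.131, 52.5 to 53 Mb at 0.377 ± 0.165 and the bin at the inner side of the right edge given above. Of these, the first and the last lie inside the fitted segment. The highest were 172 to 172.5 Mb at 2.02 ± 0.580, 172.5 to 173 Mb at 1.94 ± 0.231 and 173 to 173.5 Mb at 1.77 ± 0.376 (SD, n = 8 each).

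The 5q31-q33 band, from 130.5 to 155.7 Mb, lies wholly within the low segment. Its relative density was 0.605 and 0.506 in the TOP2A etoposide libraries, against 0.530 and 0.503 with vehicle. In the TOP2B etoposide libraries it was 0.596 and 0.572, against 0.530 and 0.504 with vehicle. All 8 values average 0.543 ± 0.0420 (SD, n = 8). The TOP2B etoposide values were above both TOP2B vehicle values, while the TOP2A etoposide values overlapped those with vehicle.

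Relative to the rest of the 90 to 160 Mb window the band stood at 1.23 and 1.03 for TOP2A etoposide, against 1.04 and 0.993 for TOP2A vehicle. The ratios were 1.20 and 1.21 for TOP2B etoposide, against 1.11 and 1.01 for TOP2B vehicle. By MACS the shortest list of the etoposide experiment, TOP2A etoposide 1, gave its highest ratio, from 191 band peaks. By SISSRs the ratios were 1.11 and 1.05 for TOP2A etoposide, against 1.04 and 0.989 for TOP2A vehicle. They were 1.25 and 1.17 for TOP2B etoposide, against 1.09 and 0.995 for TOP2B vehicle. By that caller both etoposide ratios lay above both vehicle ratios for each antibody. In the TOP2A untreated library the band went the other way, with 239 peaks and a density of 0.249 (95% exact Poisson interval 0.218 to 0.282), 0.637 of the rest of the window. Elsewhere in that experiment the ratio rested on few peaks: by MACS it was 1 for TOP2A mitoxantrone (9 band peaks), against 0.464 for TOP2B untreated (6). By SISSRs it was 1.78 for both TOP2A and TOP2B mitoxantrone (6 and 4 band sites), against 0.582 for TOP2A untreated (142) and 0.444 for TOP2B untreated (1). The band was thus not set apart from the segment around it in the same direction in both experiments, nor within the mitoxantrone experiment. With 2 libraries a group no exact test of the drug can go below p = 0.333, and the band was given no test.

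Whether etoposide changed the level of the window was tested on log2 densities. TOP2A averaged 0.515 ± 0.0248 with etoposide and 0.512 ± 0.00933 with vehicle (SD, n = 2 each), a difference of 0.0084 on the log2 scale with a two-sided exact permutation p of 1. The ranges overlapped. TOP2B averaged 0.520 ± 0.0173 with etoposide and 0.499 ± 0.00226 with vehicle (SD, n = 2 each), a log2 difference of 0.059. Both TOP2B etoposide values lay above both vehicle values by MACS, and the exact permutation p was 0.333, the smallest possible with 2 against 2, or 0.667 after Benjamini-Hochberg adjustment over the 8 single-value tests of this report. With SISSRs sites the log2 difference turned to -0.0021 for TOP2B and to -0.099 for TOP2A, with an exact permutation p of 0.667 for TOP2B and 0.333 for TOP2A. That TOP2A value is again the smallest possible: by SISSRs both TOP2A etoposide densities (0.455 and 0.492) lay below both vehicle densities (0.515 and 0.498).

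The antibody made no detectable difference either. TOP2A libraries averaged 0.514 ± 0.0154 and TOP2B libraries 0.510 ± 0.0157 (SD, n = 4 each), a log2 difference of 0.011 with an exact permutation p of 0.743 (adjusted 0.849). The smallest p that 4 against 4 allows is 0.0286. These tests cannot show that the levels are equal: in each comparison the libraries of at least 1 group differed by more than the group means did.

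Bin by bin, limma called no bin at an adjusted p under 0.05 in any of these 3 comparisons. For TOP2A etoposide against vehicle, 0% of 5733 bins passed genome-wide and none of the 263 bins of the arm, where 4 had an unadjusted p under 0.05. For TOP2B etoposide against vehicle, 0% of 5730 bins passed and 12 bins of the arm had an unadjusted p under 0.05. For TOP2A against TOP2B, with treatment as a covariate, 0% of 5733 bins passed and 3 bins of the arm had such a p. Over all tested bins the unadjusted p was under 0.05 in 3.35%, 4.82% and 3.49%, so the arm did not stand out.

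Those counts depend on single libraries. Without TOP2A etoposide 2, limma called 1133 bins for TOP2A, 41 of them on the arm and 19 in the window, and without TOP2B etoposide 2 it called 217 bins for TOP2B, 11 on the arm and 2 in the window. Without TOP2B etoposide 1 it called 11 bins for TOP2B, none on the arm. Each of these fits leaves 1 etoposide library, which is then assumed to vary like the vehicle libraries. TOP2A etoposide 1, the library left alone in the first of them, has the shortest list of the 8, with a median of 3 peaks per bin in the window.

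**Figure D4:**
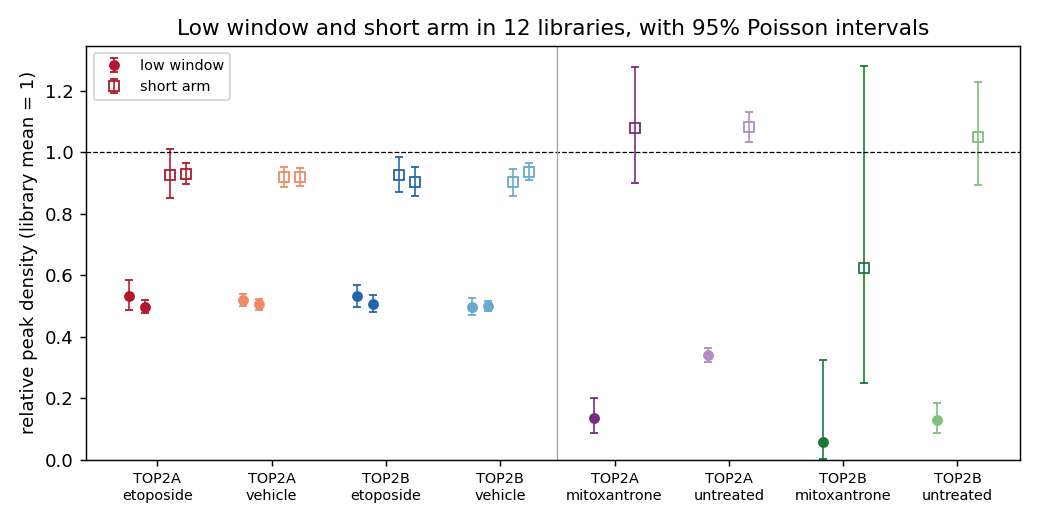
Relative MACS peak density of the 90 to 160 Mb window (filled circles) and the short arm (open squares) in each of the 12 libraries, with 95% exact Poisson intervals that cover counting error only. In the etoposide experiment (left of the line) windows lie between 0.498 and 0.533; in the mitoxantrone experiment (right) they lie between 0.0584 and 0.339 while 3 of the 4 short arms lie above 1.

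In the mitoxantrone experiment the window was lower still, with 1 library per group and hence no test. TOP2A mitoxantrone had 25 peaks in the window, a density of 0.135 (95% exact Poisson interval 0.0874 to 0.199), against 906 peaks and 0.339 (0.318 to 0.362) in TOP2A untreated. TOP2B mitoxantrone had 1 peak and 0.0584 (0.00148 to 0.325), against 29 peaks and 0.128 (0.0860 to 0.184) in TOP2B untreated. The short arm stood at 1.08 for TOP2A mitoxantrone, against 1.08 for TOP2A untreated, and at 0.622 for TOP2B mitoxantrone, against 1.05 for TOP2B untreated.

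By SISSRs sites the direction of TOP2B turned. TOP2B mitoxantrone had 8 sites in the window and a density of 0.235 (0.102 to 0.464), against 5 sites and 0.0194 (0.00631 to 0.0454) in TOP2B untreated. TOP2A mitoxantrone had 12 sites and 0.132 (0.0682 to 0.230), against 576 sites and 0.221 (0.203 to 0.240) in TOP2A untreated. The short arm by SISSRs stood at 0.806 for TOP2B mitoxantrone, against 0.479 for TOP2B untreated, and at 0.669 for TOP2A mitoxantrone, against 0.887 for TOP2A untreated.

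The MACS intervals of mitoxantrone and untreated cells are apart for TOP2A and overlap for TOP2B, while the SISSRs intervals overlap for TOP2A and are apart, in the opposite direction, for TOP2B. The lists thus give no direction for mitoxantrone in TOP2B that holds for both callers. These intervals cover counting error only. Within each antibody, MACS list length moved with the MACS density of the window. It was 7607 peaks for TOP2A mitoxantrone, against 109739 for TOP2A untreated, and 702 for TOP2B mitoxantrone, against 9290 for TOP2B untreated. By SISSRs the TOP2B mitoxantrone list was also shorter, at 1397 sites against 11047 for TOP2B untreated, but its window density was higher. Peak form differs between the experiments too: the smallest width was 190 to 267 bp in the mitoxantrone experiment and 98 to 128 bp in the etoposide experiment. The part of list length and peak calling in the lower window was not tested, and the 2 experiments were not compared by a test.

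Peak width was a measure that the choice of the arm did not use. MACS gave most peaks of the etoposide experiment the smallest width of their list; on average 27.6% ± 10.4 of window peaks were wider, against 27.9% ± 8.95 on the short arm (SD, n = 8 each). The difference of -0.349 percentage points had a two-sided exact sign-flip permutation p of 0.656 (adjusted 0.849) and was positive in 3 of 8 libraries. The relative density of the window, each class taken against its own genome-wide mean, was 0.492 ± 0.0512 for peaks wider than the smallest width and 0.516 ± 0.0137 for peaks of the smallest width (SD, n = 8 each). The log2 difference of -0.075 was negative in 5 of 8 libraries and had an exact sign-flip permutation p of 0.258 (adjusted 0.667).

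With a stricter definition of wide, the window was poorer in wide peaks relative to the genome-wide mean of that class. Peaks of at least 200 bp had a relative density of 0.138 and 0.418 in the TOP2A etoposide libraries, against 0.342 and 0.443 with vehicle. In TOP2B they stood at 0.362 and 0.317 with etoposide, against 0.442 and 0.338 with vehicle. All 8 values were below those of the smallest peaks, which ran from 0.501 to 0.537. The mean log2 difference was -0.63, with an unadjusted exact sign-flip permutation p of 0.0078. This definition is an alternative and not among the 8 tests. Put in place of the first width test it has an adjusted p of 0.0312, which rests on a tie with the equally small p of the score test. TOP2A etoposide 1 has only 3 such peaks in the window; without it the difference was -0.46 and the exact permutation p 0.0156, the smallest that 7 libraries allow, or 0.0625 adjusted in the same way. Against the short arm the share of peaks of at least 200 bp differed by -0.99 percentage points, with an exact sign-flip permutation p of 0.0156 and an adjusted 0.0625, which did not pass. TOP2B etoposide 1 went the other way there, by 0.194 points.

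**Figure D5:**
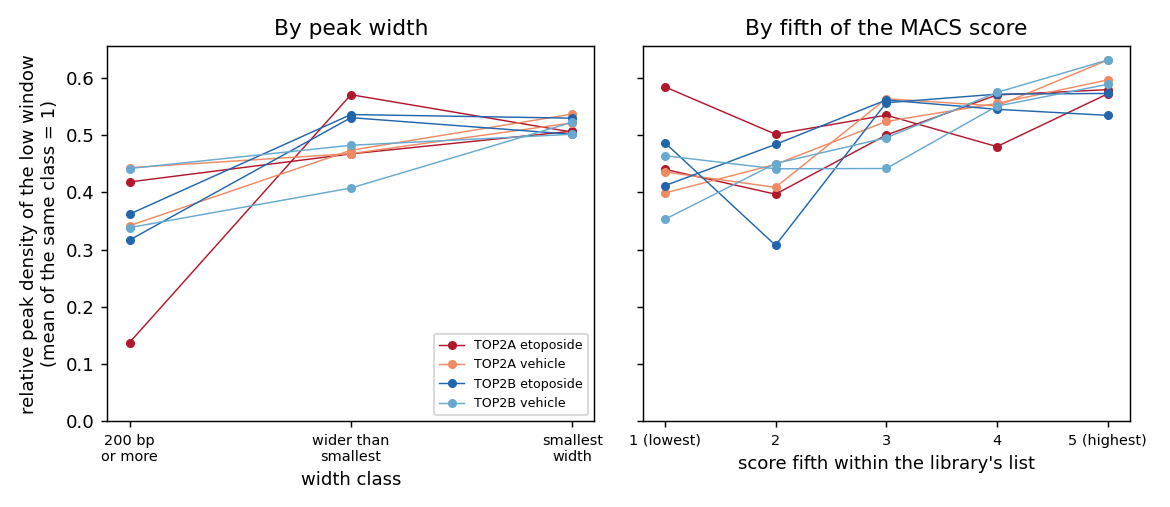
Relative density of the 90 to 160 Mb window for peaks of each width class (left) and each of 5 classes of the MACS score rank, unequal in size (right), each class against its own genome-wide mean; lines join the values of 1 library of the etoposide experiment. Peaks of at least 200 bp average 0.350 against 0.516 for peaks of the smallest width, and the 5 score classes average 0.447, 0.430, 0.522, 0.550 and 0.588.

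Peaks in the window ranked somewhat higher by score than those on the short arm. The MACS score is the authors' own value per peak and was used only as a rank within its list. The mean percentile was 53.4 ± 1.75 in the window and 51.7 ± 1.13 on the short arm (SD, n = 8 each). The difference of 1.68 percentile points was positive in 8 of 8 libraries, from 0.212 to 3.26 points. Its exact sign-flip permutation p was 0.0078, the smallest that 8 libraries allow, but 0.0625 after adjustment over the 8 tests, so it failed the correction. With 5q31-q33 in place of the window the difference was 0.439 points with an exact permutation p of 0.430, and with the rest of the genome in place of the short arm it was 3.24 points with an exact permutation p of 0.0156 (adjusted 0.125). With the median percentile in place of the mean it was 2.18 points, with an exact sign-flip permutation p of 0.0312 (adjusted 0.25). The median score was equal in both places in TOP2B etoposide 1. In TOP2B etoposide 2 it was lower in the window, at 651.8 against 668.51. With each list cut into 5 classes by score rank, the window's relative density averaged 0.447, 0.430, 0.522, 0.550 and 0.588, lowest to highest class. These classes were not equal in size. In TOP2B etoposide 1 they held from 2266 to 22817 peaks, and the class of 2266, its second, had 17 peaks in the window and a density of 0.307.

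Site strength in the second caller's lists was measured by tags and by fold. The log2 median number of tags per SISSRs site was 5.87 ± 0.814 in the window and 5.83 ± 0.827 on the short arm (SD, n = 8 each), a difference of 0.034 with an exact sign-flip permutation p of 0.250 (adjusted 0.667). The median fold over background, a measure added after seeing the data, was higher in the window in 8 of 8 libraries. That fold was 82.8 in the window against 61.4 on the short arm in TOP2A etoposide 1, the widest gap, and 154 against 149 in TOP2B etoposide 2, the narrowest. The mean log2 difference in fold was 0.15, with an unadjusted exact sign-flip permutation p of 0.0078. The fold is not among the 8 tests. Put in place of the tags it has an adjusted p of 0.0312, again by a tie with the score test, which stands at 0.0625 among the 8. The sources used here do not say how SISSRs set its background.

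In the etoposide experiment the callers agreed on nearly all peaks in both places. A SISSRs site overlapped 97.4% ± 1.71 of MACS peaks in the window and 97.3% ± 1.79 on the short arm (SD, n = 8 each), a difference of 0.099 percentage points with an exact sign-flip permutation p of 0.539 (adjusted 0.849). In the mitoxantrone experiment they agreed on far fewer. In the TOP2A untreated library the overlap was 57.3% in the window, against 63.2% on the short arm. It was 40% against 19.8% in TOP2A mitoxantrone and 17.2% against 23.1% in TOP2B untreated. In TOP2B mitoxantrone the 1 window peak had a site, against 14.3% of peaks on the short arm.

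Lower density also meant wider spacing. The median distance between neighbouring MACS peaks in the window was 108 and 21.1 kb for TOP2A etoposide, against 17.7 and 16.0 kb for TOP2A vehicle. It was 49.8 and 39.6 kb for TOP2B etoposide, against 33.8 and 13.8 kb for TOP2B vehicle. In each library this was longer than on the short arm, where it ran from 6.91 to 62.7 kb. The longest stretch without a peak was 752 kb in TOP2A etoposide 1, from 98568697 to 99320666, and 172 kb in TOP2A vehicle 2, from 123998597 to 124170896. In the mitoxantrone experiment it reached 13092 kb in TOP2A mitoxantrone, from 122424559 to 135517016, against 1032 kb in TOP2A untreated, from 149619338 to 150651815. In TOP2B untreated it was 8500 kb, from 145899055 to 154399346, and TOP2B mitoxantrone has 1 peak in the window and so no such stretch. Gap length falls with list length, so these values are not comparable between libraries.

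Few places in the low segment recurred between libraries. Overlapping MACS peaks of all 12 libraries merged into 18601 regions from 86 to 167 Mb, of which 96.8% came from 1 library, 585 from 2, 10 from 3 and 1 from 4. On the rest of the long arm 25899 merged regions had 91.0% from 1 library, 2062 from 2, 252 from 3, and up to 6 libraries in 2 regions. A lower density alone lowers the chance of overlap, and the part of density in this difference was not tested.

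The 5 most recurrent regions of the arm all lay outside the low segment. The first, chr5:85303032-85304487, 1456 bp long and in 6 libraries, lies before the left edge. The second, chr5:168069673-168071464, 1792 bp and also in 6 libraries, lies beyond the right edge. The other 3 were found in 5 libraries each, at chr5:85655462-85656114, chr5:174287748-174288735 and chr5:80308935-80309812. Coordinates are on hg19 and 1-based. None of the 5 was found in all groups: the first had no peak in either mitoxantrone list, and the second had none in TOP2B etoposide.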

How the data were processed

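The submitters' processing notes name Bowtie2 2.2.5, MACS 1.4, bedtools 2.26.0 and the build hg19. For each of 12 libraries the authors deposited a MACS list with a score per peak, and a SISSRs list with a tag count, a fold over background (a ratio) and a p-value per site, which was not used. The lists have no headers, so these units are read from the values and layout; SISSRs is named by the lists only. The sources used here give neither caller settings nor the use of the inputs. Lists were called per library, and depth is unknown.

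Peaks were counted by midpoint in 500 kb bins and divided by the library mean. The arm, the bounds and the lists were chosen with earlier results of these data known. Edges came from a least-squares fit of 3 levels of at least 5 Mb to log2 densities (pseudocount 0.5 peaks), in libraries with a mean of at least 5 peaks per bin. Bins were tested with limma 3.58.1 (trend, robust) in R 4.3.3 on log2 peaks per 10000 peaks of the list, over bins averaging 5 peaks or more, at a Benjamini-Hochberg adjusted p of 0.05. Single values were tested with two-sided exact permutation tests, as a family of 8 adjusted together. As the labels name no separate cultures, p-values reflect only how these libraries vary, perhaps for technical reasons. Intervals are 95% exact Poisson intervals and cover counting error only. Bins named are the 3 lowest and 3 highest inside and outside the window, and regions named are the 5 found in the most libraries, with ties ordered by mean score percentile, plus each library's longest peak-free stretch; of these stretches the text gives the longest and shortest of the etoposide experiment and those of the other experiment. The fits were tested on simulated data. Alternatives changed the caller, the score minimum, the bin size, the library mean, the segment, the width limit and the libraries included. Other steps ran in Python 3.11.15 with scipy 1.17.1, pandas 2.3.3 and numpy 2.4.6.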

Additional observations from a re-analysis of the deposited data

Results flagged for a closer look

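The relative density of the whole long arm was 0.774 in TOP2B etoposide 2, set apart from the other 3 TOP2B libraries, which ran from 0.746 to 0.750. This was the only value far from the rest among 12 sets of 4 libraries examined (6 regions by 2 antibodies), and the limit used, Dixon's 95% critical value, is by its definition passed by chance in about 1 set in 20. Its 90 to 160 Mb window, at 0.508, was not apart from the others.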

How the results depend on the processing

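Of 235 recomputed values, 209 kept their direction and their call or, where there was no test, shifted less than 1 SD of the libraries. Some of the 209 could not have changed. The library mean cancels in the ratio of window to short arm, and 1 Mb bins or counting every bin leave the drug and antibody differences as they were. With 2 libraries a group, the drug tests of the window could not pass in any version, so only their direction could change. Both edges stayed at 86 and 167 Mb with 4 or 6 levels, 1 Mb bins, SISSRs sites, a score minimum of 100, the square-root scale and without each library. The mean density of the 90 to 160 Mb window was 0.491 with SISSRs sites, 0.540 with chromosome 8 left out of the library mean, 0.529 against the library median and 0.542 with every bin counted; the long arm's was 0.802, 0.785 and 0.805 under the last 3. The log2 ratio of window to short arm was -0.90 with SISSRs sites. Leaving out 1 library moved the window between 0.509 and 0.514, the band between 0.534 and 0.549, the arm between 0.757 and 0.761 and the log2 ratio between -0.85 and -0.84.

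The small drug and antibody differences changed sign. TOP2A etoposide minus vehicle was -0.016 with a score minimum of 100, -0.099 with SISSRs sites and -0.041 to 0.058 without 1 library. TOP2B etoposide minus vehicle was -0.0021 with SISSRs sites and 0.025 to 0.093 without 1 library. TOP2A minus TOP2B was -0.021 with a score minimum of 100, -0.0063 with SISSRs sites and -0.0066 to 0.032 without 1 library. The cause was not tested. The share of wider peaks, window minus short arm, was 0.399 points with a score minimum of 100 and -0.922 to -0.052 points without 1 library.

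Wide minus narrow was -0.63 with a limit of 200 bp, -0.68 with that limit between the fitted edges, -0.46 with that limit without TOP2A etoposide 1, and -0.110 to -0.034 without 1 library at the first definition. SISSRs fold in place of tags gave 0.15. The fold and the 200 bp limit pass only where each takes the place of its own test among the 8 and ties with the score test; alone their p of 0.0078 would adjust like the score's, to 0.0625. The fitted edges as bounds, the 6 levels, the fold and the version without TOP2A etoposide 1 were chosen after seeing the data. The score difference was 0.439 points with 5q31-q33 as the segment and 3.24 against the rest of the genome. Without 1 library it was 1.45 to 1.89 points, the tag difference 0.014 to 0.049 and the caller overlap 0.012 to 0.210 points.

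With the replicate number as a block, limma called 2 bins for TOP2A etoposide, 3 for TOP2B etoposide and 0 for TOP2A against TOP2B, none on the arm; the blocked differences of the window had exact permutation p of 1, 0.500 and 0.625. The labels do not say that a number marks a shared culture, and deviations of same-numbered libraries across 5738 bins correlated between -0.0934 and 0.0763. Counting error in the bins also lowers such correlations, so they cannot show whether these libraries share a culture or chromatin. Without 1 library the called bins ran from 0 to 1133 for TOP2A etoposide, from 0 to 217 for TOP2B etoposide and stayed at 0 for TOP2A against TOP2B. With 2 libraries a group, or 702 to 9290 peaks in 3 mitoxantrone-experiment lists, small changes of the segment could not have been seen.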
